A study of Mus musculus with 16 samples.

Results

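A set of 10 genes of the transforming growth factor beta (TGF-β) superfamily were followed across 16 adipose tissue libraries: the TGF-β ligands Tgfb1, Tgfb2 and Tgfb3, the activin subunits Inhba and Inhbb, the bone morphogenetic protein (BMP) ligands Bmp2, Bmp3 and Bmp4, the growth differentiation factor Gdf3, and Acvr1c, which is not a ligand but a type I receptor. They were found by matching the RefSeq accession of each table row to the gene symbol, which gave 23 rows for these 10 genes out of 130343 rows. The libraries came from 8 male wild-type C57BL/6J mice. The 4 lean mice ate normal laboratory diet. The 4 obese mice ate a high-fat diet with 42% of calories from fat and 0.2% cholesterol. Each diet was given for 12 to 14 months from 10 weeks of age, and the lean mice were matched to the obese mice in age. Inguinal subcutaneous adipose tissue (SAT) and mesenteric visceral adipose tissue (VAT) of each mouse were sequenced as bulk polyadenylated RNA, which made 4 groups of 4 libraries. The obese mice differed from the lean mice in diet over most of adult life, and no alleles or transgenes were involved. Visible vessels were dissected away and the remaining tissue was sequenced in bulk. Fewer cells of a type and less RNA per cell therefore cannot be told apart.

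Ligands of this superfamily are secreted as dimers that bring type II and type I receptor kinases together on the cell surface. TGF-β and activin receptors phosphorylate one set of Smad proteins and BMP receptors another, and the activated Smads enter the nucleus with Smad4 to regulate transcription. TGF-β itself is stored in the matrix in a latent form, while BMPs and activins are held in check by secreted antagonists such as noggin, chordin and follistatin. In adipose tissue TGF-β is known for matrix production and for restraint of adipocyte differentiation, Bmp4 and Bmp2 for commitment of progenitors to the adipocyte lineage, activin B, the dimer of the Inhbb product, as a secreted product of adipocytes, and Gdf3 as a ligand of the adipocyte receptor encoded by Acvr1c.

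Sequencing depth ranged from 4604460 to 16614407 counted reads in SAT and from 1256082 to 15802634 in VAT, with the VAT library of lean mouse 1 the shallowest and that of obese mouse 1 the next, at 2247737. The 9 adipocyte markers had summed levels of 37352 to 58695 CPM (counts scaled to a common library total) in SAT and 15650 to 35159 CPM in VAT, to which Fabp4, Lep and Adipoq gave most, whereas Pparg had group means of 1.55 to 4.69 CPM and was at 0 in VAT of lean mouse 1. The 6 tested mesothelial markers, of a cell layer that covers visceral organs, were all higher in VAT than in SAT of lean and of obese mice, with summed levels of 0.167 to 1.41 CPM in SAT and 252 to 608 CPM in VAT, and Msln, Wt1 and Upk1b at 0 counts in every SAT library. Levels of the tested genes are CPM scaled by the trimmed mean of M-values (TMM), those of the 3 members not tested are unscaled CPM, and none is corrected for transcript length, so levels are compared between libraries and not between genes.

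The members differed widely in counts. The table has 1 row per RefSeq transcript. The 4 members with 1 row held 3080 counts (Bmp2), 3935 counts (Tgfb1), 12348 counts (Tgfb3) and 17165 counts (Inhbb) over the 16 libraries, whereas the 6 with 2 or more rows held 2 counts (Tgfb2), 39 counts (Acvr1c), 59 counts (Inhba), 210 counts (Gdf3), 333 counts (Bmp3) and 362 counts (Bmp4). Over all protein-coding genes, the 8139 with 1 row carried 86.8% of the counts and the 13531 with several rows carried 13.2%, while the median gene held 25 counts in the first class and 38 in the second. For Inhba and Acvr1c the curated transcripts had 0 counts and all counts lay on predicted transcript models. How reads shared by transcripts of a gene were handled is not given in the sources used here. For the 6 members with several rows, low counts and low expression therefore cannot be told apart. The same holds for other genes with several rows, such as the adipocyte marker Pparg with 13.

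The other 3 members were too low to be tested and are given in unscaled CPM, since a row needed more than 1 CPM in 3 or more libraries. Tgfb2 had 1 count in VAT of lean mice, 1 in VAT of obese mice and 0 in SAT, where 0 counts allow, at an upper limit of 3 counts, up to 0.0858 CPM over the lean and 0.0511 CPM over the obese libraries. Inhba, the subunit of activin A, had 12 counts in SAT of lean mice (0.343 CPM, exact 95% Poisson interval 0.177 to 0.599), 17 in SAT of obese mice (0.289 CPM, 0.169 to 0.463), 21 in VAT of lean mice (0.604 CPM, 0.374 to 0.924) and 9 in VAT of obese mice (0.258 CPM, 0.118 to 0.490). Acvr1c had 8, 9, 16 and 6 counts in the same order, at 0.153 to 0.460 CPM. These intervals cover counting error only. No difference between groups was tested for these 3 genes. The remaining 7 members each had 1 row that passed, so their row-wise values and the values summed per gene differed by at most 1 count, and the same members were called in both.

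The tested members lie on different chromosomes of GRCm39, with Tgfb1 at chr7:25386390-25404506 (plus strand), Tgfb3 at chr12:86102756-86126301 (minus), Inhbb at chr1:119343193-119350021 (minus), Bmp2 at chr2:133394079-133404816 (plus), Bmp4 at chr14:46620250-46636745 (minus), Bmp3 at chr5:99002268-99032255 (plus) and Gdf3 at chr6:122582317-122587197 (minus). An annotated gene on the opposite strand overlaps Tgfb3 (Ttll5, over 5912 bases) and Gdf3 (Dppa3, over 650 bases), and long noncoding genes on the opposite strand overlap Inhbb, Bmp3 and Bmp4. Because the strand setting of the counting is not given in the sources used here, reads of these pairs may not have been separated. The promoters of Tgfb1, Inhbb and Bmp4 are shown because these are the tested members with an entry in the RefSeq promoter table (GRCm38.p6), and the 3 had different depot calls in lean mice, with Bmp4 higher in VAT, Inhbb higher in SAT and Tgfb1 not called. Each sequence of 200 bases ends short of the start in the RefSeq table and overlaps no exon of the gene in GENCODE. It is written 5′ to 3′ on the gene's strand and has matches to the motifs searched in capitals.
Tgfb1, GRCm39 chr7:25386177-25386376, plus strand, upstream of the gene: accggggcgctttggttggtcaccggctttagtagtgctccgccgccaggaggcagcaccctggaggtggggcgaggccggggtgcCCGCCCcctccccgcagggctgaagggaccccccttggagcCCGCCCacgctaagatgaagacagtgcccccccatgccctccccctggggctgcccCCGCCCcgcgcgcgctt
Inhbb, GRCm39 chr1:119350029-119350228, minus strand, upstream of the gene: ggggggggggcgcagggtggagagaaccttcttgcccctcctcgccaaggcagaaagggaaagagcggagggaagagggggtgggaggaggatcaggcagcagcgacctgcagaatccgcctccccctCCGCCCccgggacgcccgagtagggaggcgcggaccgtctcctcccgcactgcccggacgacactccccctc
Bmp4, GRCm39 chr14:46628177-46628376, minus strand, within an intron of the longest annotated transcripts and upstream of the shorter ones: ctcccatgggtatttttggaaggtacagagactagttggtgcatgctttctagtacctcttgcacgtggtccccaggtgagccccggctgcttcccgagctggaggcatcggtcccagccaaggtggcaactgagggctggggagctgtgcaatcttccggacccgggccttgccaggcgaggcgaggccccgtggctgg
The motifs were the Smad box CAGAC, the GC box GGGCGG and the TATA box TATAAA, each on both strands, and none of the matches overlapped another motif. The GC box was found 3 times in Tgfb1, 1 time in Inhbb and 0 times in Bmp4, and 24.6% of 32851 promoter windows of this length hold at least 1. The Smad box, present in 35.8% of windows, and the TATA box, present in 9.14%, were in none of the 3 windows. The bases between each window and the start were not searched, so this absence covers the windows alone. The GC content was 74.0% for Tgfb1, 71.0% for Inhbb and 63.0% for Bmp4.

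The first comparison asked which members differed between obese and lean mice within each depot. In SAT, Gdf3 rose and Tgfb3 and Bmp2 fell, and the other 4 tested members did not pass the test. The share of members called, 3 of 7, stood beside 11.0% of all 13288 rows tested. In VAT, Gdf3 rose and was the only member called, 1 of 7 beside 10.9% of all rows. A call required an adjusted p below 0.05. Calls with a log2 fold change beyond 1.5 in size, the limit used in the study, were limited to Gdf3 in both depots, beside 2.75% of all rows in SAT and 3.17% in VAT. Gdf3 was kept for testing through libraries of obese mice. Among lean libraries it was above 1 CPM only in VAT of mouse 1.

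**Figure D1:**
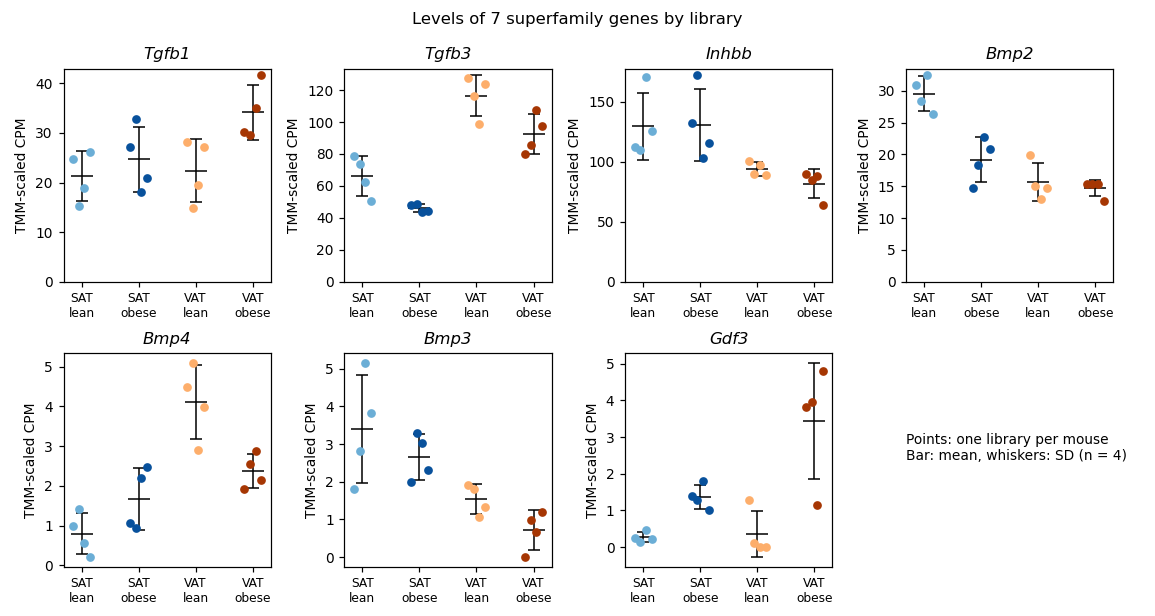
Level of each of the 7 tested genes in TMM-scaled CPM (y axis) by tissue and diet (x axis), where each point is 1 library and the bar with whiskers is the mean ± SD (n = 4). Gdf3 was at 0.141 to 0.477 CPM in SAT of lean mice and at 1.00 to 1.79 CPM in SAT of obese mice, and Tgfb3 and Bmp2 in SAT were lower in every obese than in every lean mouse.

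Gdf3, a ligand that signals through the receptor encoded by Acvr1c, had few counts in lean tissue. In SAT of lean mice 1 to 4 it was at 0.248, 0.141, 0.477 and 0.213 CPM, from 3, 1, 5 and 1 counts. In SAT of obese mice 1 to 4 it was at 1.38, 1.27, 1.79 and 1.00 CPM, from 18, 12, 26 and 13 counts. Every obese mouse was above every lean mouse in SAT, and the log2 fold change was 2.21 ± 0.62 (SE, n = 4 per group, adjusted p = 0.0243). The call was lost in 4 of 16 alternatives, namely limma voom (adjusted p = 0.0781) and the fits without lean replicate 2 (0.0809), obese replicate 1 (0.0530) or obese replicate 2 (0.0501). The pooled counts of 69 against 10 gave a ratio of 4.11 per counted read, with an exact 95% interval of 2.11 to 8.95 that covers counting error only.

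In VAT of lean mice 1 to 4 Gdf3 was at 1.28, 0.120, 0 and 0 CPM, from 2, 2, 0 and 0 counts, where 0 counts allow up to 0.322 and 0.331 CPM (3 counts) in mice 3 and 4. In VAT of obese mice 1 to 4 it was at 3.83, 3.96, 1.15 and 4.80 CPM, from 10, 48, 12 and 56 counts. Obese mice 1, 2 and 4 were above every lean mouse, whereas obese mouse 3, at 1.15 CPM, was below lean mouse 1, whose value of 1.28 CPM came from 2 counts in the shallowest library. The log2 fold change was 4.76 ± 0.71 (SE, n = 4 per group, adjusted p = 1.12e-04), and the call held in all 16 alternatives, with 4.33 to 5.63 as the range. The pooled counts were 126 against 4, a ratio of 31.4 with an exact 95% interval of 12.0 to 116.9 for counting error. The adjusted p was 3.75e-05 without lean replicate 1.

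Marker genes of macrophages and of other cell types moved with Gdf3. Of the 8 tested markers in a list of 9, 6 were higher in SAT of obese mice and 8 in VAT of obese mice, while Adgre1, a common macrophage marker, held too few counts to be tested. Their summed level was 1430 to 2058 CPM in SAT of lean mice and 2318 to 3239 CPM in SAT of obese mice. In VAT it was 2517 to 3263 CPM in lean and 5451 to 7706 CPM in obese mice. For lipid-associated macrophages, the population described in obese fat, 7 of 8 tested markers were higher in VAT of obese mice and Lpl, which adipocytes also express, was lower. In SAT 2 of the 8 were higher and Lpl was lower. Without Lpl, a change to the list made after its values were seen, the summed level of the other 8 genes was 287 to 409 CPM in SAT of lean mice, 421 to 575 CPM in SAT of obese mice, 184 to 266 CPM in VAT of lean mice and 621 to 2223 CPM in VAT of obese mice. Obese mouse 4 had the highest Gdf3, 4.80 CPM, and the highest level of both lists in VAT, 7706 and 2223 CPM. Obese mice 1 and 3 had similar levels in VAT, 5546 and 5451 CPM for macrophage markers and 669 and 621 CPM for the other list. Their Gdf3 was at 3.83 and 1.15 CPM. Other lists also moved with diet in VAT, where 3 of 5 tested B cell markers and 3 of 4 tested T cell markers were higher and 4 of 9 adipocyte markers were lower in obese mice. The B cell sum was 38.8 to 288 CPM in VAT of lean and 238 to 441 CPM in VAT of obese mice, and the T cell sum was 10.9 to 16.1 CPM and 25.6 to 52.8 CPM. In SAT no B or T cell marker was called, and 1 of 9 adipocyte markers was lower. Over all genes 6.35% were called higher and 5.25% lower in SAT, and 6.88% and 5.28% in VAT. The part of these cell types in the Gdf3 result was not tested.

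**Figure D2:**
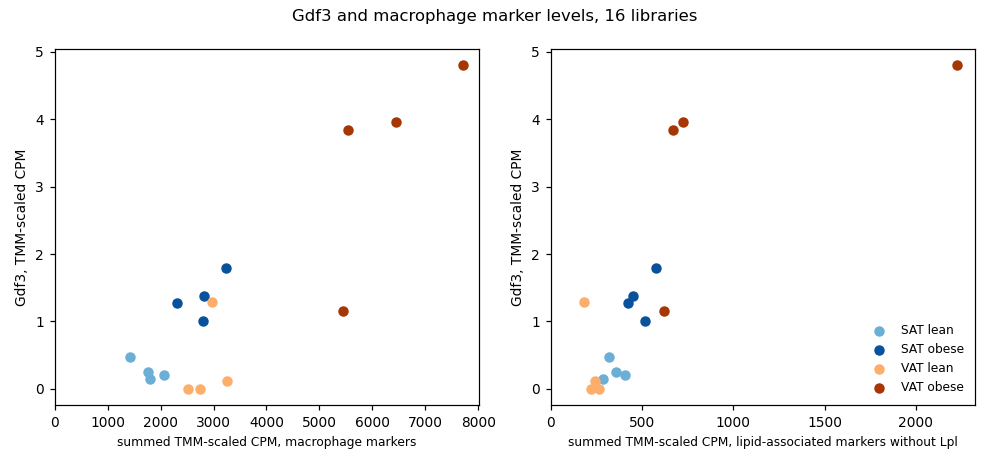
Gdf3 in TMM-scaled CPM (y axes) against the summed TMM-scaled CPM of the macrophage markers (left x axis) and of the lipid-associated macrophage markers without Lpl (right x axis), where each point is 1 of 16 libraries and the color gives tissue and diet. VAT of obese mice lies to the right on both panels, from 5451 CPM on the left and from 621 CPM on the right, and 3 of its 4 libraries have the highest Gdf3 values.

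The genes whose pattern was nearest to Gdf3 over the 16 libraries, among 10693 genes and by the root mean square difference of centered log2(CPM + 0.5) values, were D730005E14Rik (0.43), Olfr111 (0.47) and Apobec1 (0.47), where Gdf3 itself deviated from its own mean by 1.09. Apobec1, the cytidine deaminase that edits apolipoprotein B mRNA, had mean levels of 4.21 ± 0.642 CPM in SAT of lean, 10.6 ± 0.929 in SAT of obese, 5.14 ± 1.08 in VAT of lean and 19.5 ± 4.38 in VAT of obese mice (SD, n = 4). These genes were chosen for their likeness to Gdf3 in the same libraries, so their levels are a description.

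Tgfb3, one of the TGF-β isoforms, fell in SAT. Lean mice 1 to 4 had 78.9, 73.7, 62.2 and 50.6 CPM, and obese mice 1 to 4 had 47.8, 48.4, 43.8 and 44.4 CPM. Every obese mouse was below every lean mouse, and the obese mice were close to each other (46.1 ± 2.33 CPM, SD, n = 4) while the lean mice spread more (66.4 ± 12.6 CPM). The log2 fold change was -0.53 ± 0.14 (SE, adjusted p = 0.0142). The call was lost without lean replicate 2 (adjusted p = 0.0594) and with no filter on low counts (0.0563). In VAT, where Tgfb3 was higher, lean mice had 127, 116, 98.6 and 124 CPM and obese mice 79.7, 85.8, 108 and 97.7 CPM. Obese mouse 3 was above lean mouse 3, and the log2 fold change of -0.32 ± 0.14 did not pass (adjusted p = 0.152).

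Tgfb1, the TGF-β isoform made by many cell types including leukocytes, was at 24.8, 15.3, 19.0 and 26.2 CPM in SAT of lean mice 1 to 4 and at 27.2, 32.7, 18.1 and 20.9 CPM in SAT of obese mice. These groups overlapped, with a log2 fold change of 0.21 ± 0.22 (adjusted p = 0.589). In VAT it was at 28.2, 14.9, 19.5 and 27.1 CPM in lean and at 30.3, 29.5, 35.1 and 41.6 CPM in obese mice. Every obese mouse was above every lean mouse in VAT, but the log2 fold change of 0.66 ± 0.22 was just outside the threshold (adjusted p = 0.0570). It was inside the threshold in 5 of 16 alternatives, among them the fit without lean replicate 1 (adjusted p = 0.0413). The macrophage, B cell, T cell and adipocyte markers given above for Gdf3 moved between the same VAT libraries, and their part in the Tgfb1 values was not tested.

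Bmp2, an osteogenic and adipogenic BMP, fell in SAT and was near level in VAT. In SAT it was at 30.9, 28.4, 32.5 and 26.4 CPM in lean mice 1 to 4 and at 14.7, 18.3, 22.8 and 20.9 CPM in obese mice. The groups did not overlap, and the log2 fold change was -0.63 ± 0.16 (SE, n = 4 per group, adjusted p = 0.0118). The call was lost with no filter on low counts (adjusted p = 0.0635). In the same SAT libraries 6 of 8 tested macrophage markers and 1 of 6 tested endothelial markers were higher in obese mice. Of 9 adipocyte markers 1 was lower. Over all genes 6.35% were called higher and 5.25% lower. The part of these cell types in the SAT values of Bmp2 and Tgfb3 was not tested. In VAT Bmp2 was at 19.9, 15.0, 13.0 and 14.8 CPM in lean and at 15.3, 15.4, 15.4 and 12.8 CPM in obese mice, with a log2 fold change of -0.04 ± 0.17 (adjusted p = 0.920).

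Bmp4, which commits progenitors to the adipocyte lineage, had fold changes of opposite sign in the depots, and neither passed the test. In SAT it was at 0.991, 1.41, 0.572 and 0.213 CPM in lean mice, from 12, 10, 6 and 1 counts, and at 1.08, 0.953, 2.21 and 2.47 CPM in obese mice, from 14, 9, 32 and 32 counts. Obese mice 3 and 4 were above all lean mice and obese mice 1 and 2 were within their range, with a log2 fold change of 1.02 ± 0.41 (adjusted p = 0.118). In VAT it was at 4.48, 5.09, 2.90 and 3.98 CPM in lean mice, from 7, 85, 27 and 36 counts, and at 1.92, 2.56, 2.87 and 2.14 CPM in obese mice, from 5, 31, 30 and 25 counts. Each obese mouse was below each lean mouse, by a narrow gap between 2.90 and 2.87 CPM, and the log2 fold change was -0.74 ± 0.35 (adjusted p = 0.204).

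Bmp3, a BMP that opposes osteogenic BMPs in bone, and Inhbb did not pass in either depot. In SAT Bmp3 was at 1.82, 2.81, 5.15 and 3.83 CPM in lean and at 2.00, 3.28, 3.04 and 2.31 CPM in obese mice. In VAT it was at 1.92, 1.79, 1.07 and 1.33 CPM in lean and at 0, 0.990, 0.671 and 1.20 CPM in obese mice, where the library at 0 allows up to 1.15 CPM (3 counts). The groups overlapped in both depots, with log2 fold changes of -0.35 ± 0.35 in SAT (adjusted p = 0.584) and -0.77 ± 0.44 in VAT (adjusted p = 0.317). Inhbb, at 110 to 170 CPM in SAT of lean mice and 104 to 172 CPM in SAT of obese mice, had a log2 fold change of 0.01 ± 0.16 (adjusted p = 0.978). In VAT it was at 89.3 to 101 CPM in lean and at 64.0 to 89.7 CPM in obese mice, with a log2 fold change of -0.21 ± 0.16 (adjusted p = 0.490).

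Counting the members whose lean and obese libraries did not overlap gave 3 of 7 in SAT (Tgfb3 and Bmp2 lower, Gdf3 higher in obese mice), beside 17.2% of all rows. Of these, Gdf3 was kept for testing through libraries of obese mice, as given above. In VAT it gave 2 of 7 (Tgfb1 higher and Bmp4 lower), beside 13.4% of all rows.

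**Figure D3:**
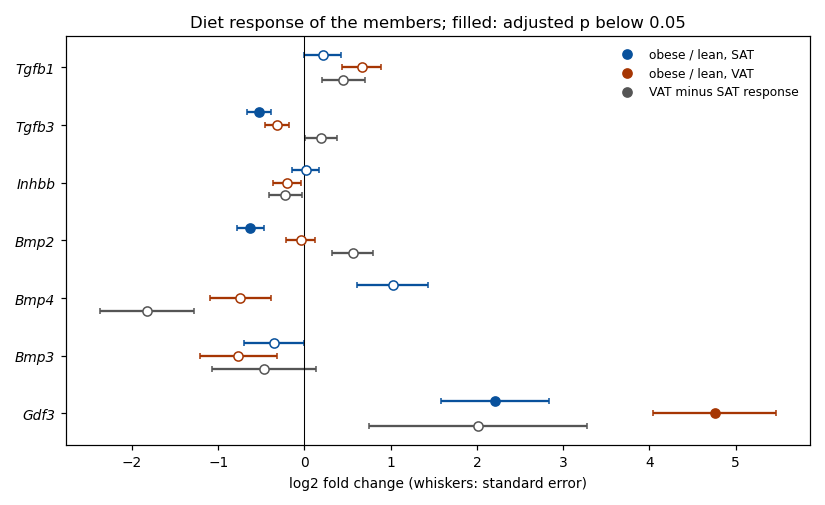
Log2 fold change of obese against lean mice in SAT and in VAT, and the difference between these responses (VAT minus SAT), for each tested gene (y axis), with the standard error as whiskers and filled points for an adjusted p below 0.05. Filled points are Tgfb3, Bmp2 and Gdf3 in SAT and Gdf3 in VAT, and no point of the difference is filled.

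Whether the response to diet differed between the depots was fitted with a term for each mouse. No member passed edgeR's test of this difference, 0 of 7 beside 2.17% of all rows, and 2 members had an unadjusted p below 0.05 (Bmp4 and Bmp2). DESeq2 and limma voom also called 0 members, although DESeq2 gave no adjusted p for Bmp4 and so could not call it. Bmp4 had a difference of -1.83 ± 0.55 on the log2 scale (adjusted p = 0.0827), and over the 15 alternatives its adjusted p ranged from 0.0576 to 0.279, with none given by DESeq2. With counts summed per gene it passed in 1 alternative, that with no filter on low counts. For Bmp2 the difference was 0.56 ± 0.24 (adjusted p = 0.261). Gdf3 had a difference of 2.01 ± 1.26 (adjusted p = 0.505), so its log2 fold changes of 2.21 in SAT and 4.76 in VAT were not shown to differ. The differences of Tgfb1 (0.45 ± 0.25), Tgfb3 (0.19 ± 0.19), Inhbb (-0.22 ± 0.19) and Bmp3 (-0.47 ± 0.60) had adjusted p values from 0.440 to 0.780.

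The second comparison asked how the depots of the same mouse differed. In lean mice 5 of 7 members were called, with Tgfb3 and Bmp4 higher and Inhbb, Bmp2 and Bmp3 lower in VAT, beside 14.8% of all rows. In obese mice 4 of 7 were called, with Tgfb1 and Tgfb3 higher and Inhbb and Bmp3 lower in VAT, beside 29.4% of all rows. The direction was the same in all 4 mice for 4 members in lean mice (Tgfb3, Bmp4, Inhbb and Bmp2), beside 34.5% of rows, and for 3 members in obese mice (Tgfb3, Inhbb and Bmp3), beside 45.4% of rows.

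Tgfb3 was higher in VAT of every mouse. The ratio of VAT to SAT was 1.62, 1.57, 1.59 and 2.44 in lean mice 1 to 4 and 1.67, 1.77, 2.46 and 2.20 in obese mice 1 to 4. The log2 fold change was 0.82 ± 0.13 in lean (adjusted p = 1.03e-04) and 1.01 ± 0.13 in obese mice (adjusted p = 4.28e-06), and both calls held in all 15 alternatives. Tgfb1, by contrast, had ratios of 1.14, 0.971, 1.03 and 1.03 in lean mice, with a log2 fold change of 0.05 ± 0.18 (adjusted p = 0.894). In obese mice 1 to 4 its ratios were 1.12, 0.902, 1.94 and 1.99, with a log2 fold change of 0.50 ± 0.17 (adjusted p = 0.0328). That call rested on obese mice 3 and 4, since it was lost without replicate 3 (adjusted p = 0.229) or replicate 4 (0.261), and it was also lost with no filter on low counts (0.165) and without the mouse block (0.0991). In VAT against SAT of obese mice all 8 tested macrophage markers, all 5 tested B cell markers and all 4 tested T cell markers were higher. Over all genes 31.4% were called in either direction. The summed level of the B cell markers was 6.80 to 13.1 CPM in SAT and 238 to 441 CPM in VAT of obese mice, and that of the T cell markers was 2.45 to 10.2 CPM and 25.6 to 52.8 CPM. The part of these cells in the Tgfb1 values was not tested.

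Bmp4 had the highest ratios of VAT to SAT among the members called in lean mice. In lean mice 1 to 4 VAT was 4.52, 3.61, 5.06 and 18.7 times SAT, where the last ratio rests on 1 count in SAT. The log2 fold change was 2.34 ± 0.41 (adjusted p = 2.57e-04), from pooled counts of 155 in VAT and 29 in SAT, and the call held in all 15 alternatives. In obese mice 1 to 4 the ratios were 1.78, 2.68, 1.30 and 0.867, with a log2 fold change of 0.51 ± 0.36 (adjusted p = 0.307). That the depot difference passed in lean and not in obese mice does not show that it differed by diet, since the test of that difference, given above for Bmp4, did not pass except with no filter on counts summed per gene. The mesothelial markers, near 0 in SAT and at 252 CPM or more in VAT, separated the depots in the same direction as Tgfb3 and Bmp4. In lean mice 6 of 8 tested macrophage, 4 of 5 B cell and 2 of 4 intestinal markers were also higher in VAT. Of 7 tested progenitor and fibroblast markers 3 were higher and 2 lower in VAT. Over all genes 15.9% were called in either direction. The part of these cell types in the Tgfb3 and Bmp4 values was not tested.

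**Figure D4:**
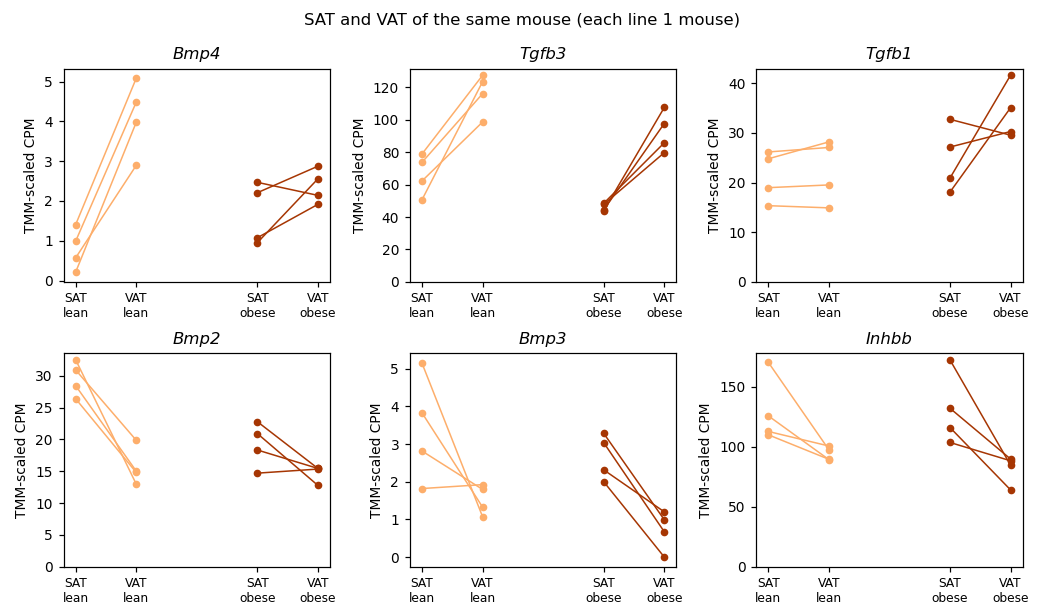
TMM-scaled CPM (y axes) in SAT and VAT of the same mouse for 6 genes, where each line is 1 mouse, with lean mice on the left and obese mice on the right of each panel. Tgfb3 rises from SAT to VAT in all 8 mice, Inhbb falls in all 8, and Bmp4 rises in all 4 lean mice and in 3 of 4 obese mice.

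Inhbb, the activin B subunit, was lower in VAT of every mouse, with ratios of 0.892, 0.814, 0.572 and 0.710 in lean mice 1 to 4 and 0.679, 0.491, 0.853 and 0.552 in obese mice. The log2 fold change was -0.45 ± 0.13 in lean mice (adjusted p = 0.0241) and -0.67 ± 0.13 in obese mice (adjusted p = 5.07e-04). In lean mice the call was lost without replicate 3 (adjusted p = 0.225), without replicate 4 (0.0919) and without the mouse block (0.0566). Of the 9 adipocyte markers, 2 (Fabp4 and Lep) were lower in VAT of lean mice, beside 15.9% of all genes called in either direction. In obese mice 6 were lower in VAT, beside 31.4% of all genes. The median log2 fold change of the 9 was -0.19 in lean and -0.71 in obese mice. The part of adipocyte content in the Inhbb values was not tested.

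Bmp2 was lower in VAT of all 4 lean mice, with ratios of 0.643, 0.528, 0.399 and 0.561, and a log2 fold change of -0.95 ± 0.17 (adjusted p = 3.29e-04). In obese mice the ratios were 1.04, 0.842, 0.677 and 0.610, and the log2 fold change of -0.39 ± 0.17 did not pass (adjusted p = 0.0814), although it did in 2 of 15 alternatives, among them the fit without obese replicate 1 (0.0320). Bmp3 had ratios of 1.06, 0.638, 0.208 and 0.346 in lean mice and of 0, 0.302, 0.221 and 0.518 in obese mice. The log2 fold change was -1.26 ± 0.42 in lean mice (adjusted p = 0.0446), a call lost in 7 of 15 alternatives, among them the fits without lean replicates 2, 3 or 4 (adjusted p = 0.0574, 0.344 and 0.147) and without obese replicates 2 or 3 (0.0524 and 0.0553). In obese mice it was -1.74 ± 0.43 (adjusted p = 0.00352).

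Gdf3 did not pass between depots. In lean mice, where the counts were 4 in VAT and 10 in SAT, the log2 fold change was -0.81 ± 1.13 (adjusted p = 0.708). In obese mice 1, 2 and 4 it was 2.77, 3.12 and 4.78 times higher in VAT, in mouse 3 the ratio was 0.641, and the log2 fold change was 1.21 ± 0.51 (adjusted p = 0.0788). It passed in 4 of 15 alternatives, among them the fit without obese replicate 3 (1.80, adjusted p = 0.0197) and that without the mouse block (0.0369).

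Ordered by mean level, the groups ran from SAT of obese and SAT of lean to VAT of obese and VAT of lean mice for Tgfb3 (46.1, 66.4, 92.7 and 116 CPM), and each step but the last, VAT of obese to VAT of lean, was between groups that did not overlap. For Inhbb the order was VAT of obese (81.6 CPM), VAT of lean (94.2), SAT of lean (130) and SAT of obese mice (131), where the first and the last pair overlapped and VAT of lean mice was below every library of SAT of lean mice. For Gdf3 it was SAT of lean (0.269 CPM), VAT of lean (0.350), SAT of obese (1.36) and VAT of obese mice (3.43), where every pair of neighbors overlapped. The mean in VAT of lean mice rests on the 2 counts of lean mouse 1, and by pooled counts (4 in VAT and 10 in SAT of lean mice, ratio 0.403) the first pair was in the opposite order. Bmp2 ran from VAT of obese (14.7 CPM) and VAT of lean (15.7) to SAT of obese (19.2) and SAT of lean mice (29.5), and the last step alone was between groups that did not overlap. Bmp3 had the same order of groups (0.715, 1.53, 2.66 and 3.40 CPM), and there the step from VAT of lean to SAT of obese mice alone had no overlap. Bmp4 ran from SAT of lean (0.796 CPM) and SAT of obese (1.68) to VAT of obese (2.37) and VAT of lean mice (4.11), with no overlap in the last step alone. For Tgfb1 all neighbors in the order SAT of lean (21.3 CPM), VAT of lean (22.4), SAT of obese (24.7) and VAT of obese mice (34.1) overlapped.

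The rest of the pathway was followed in 97 genes in 7 lists, of which 96 were in the table and 47 had enough counts, here summed per gene. In SAT 8 of the 47 were higher in obese mice and 1 was lower, beside 6.35% of 12186 genes called higher and 5.25% called lower. In VAT 4 were higher and 1 was lower, beside 6.88% and 5.28% of all genes. The median log2 fold change of the 47 was 0.16 in SAT and 0.18 in VAT, where the medians over all genes were 0 and -0.02. The response differed between depots for 2 of the 47 (Fstl1 and Thbs1), beside 2.47% of all genes. Between depots 12 of the 47 were called in lean mice, beside 15.9% of all genes, and 23 in obese mice, beside 31.4%.

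Among the 6 tested of 11 receptors, 3 rose in SAT and 1 rose in VAT with the high-fat diet. Tgfbr2, the type II receptor for TGF-β, was at 3.50, 3.10, 2.20 and 7.05 CPM in SAT of lean mice and at 11.6, 9.14, 6.93 and 7.69 CPM in SAT of obese mice. Its groups overlapped because lean mouse 4 was above obese mouse 3, and the log2 fold change was 1.24 ± 0.27 (adjusted p = 0.00410). Acvr1b, the type I receptor for activins, and Bmpr2, a type II receptor for BMPs, were the others called in SAT, and Acvrl1, a type I receptor of endothelium, was called in VAT. Of the 5 tested of 8 Smads, 1 was called, the inhibitory Smad7, which was at 7.67 to 9.83 CPM in SAT of lean and 11.6 to 28.3 CPM in SAT of obese mice (log2 fold change 1.27 ± 0.23, adjusted p = 9.72e-04). None of the 3 tested of 9 listed co-receptors was called in either depot, and of the 10 tested of 24 other ligands 1 was called, Gdf11, which rose in VAT.

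Of the 8 tested of 16 extracellular antagonists, 2 rose and 1 fell in SAT. Fstl1, follistatin-like 1, was at 761 to 1323 CPM in SAT of lean and 1937 to 2679 CPM in SAT of obese mice, with a log2 fold change of 1.29 ± 0.16 (adjusted p = 2.26e-05). Its response was smaller in VAT by 0.83 ± 0.16 on the log2 scale (adjusted p of the difference = 0.00675). Fstl3, which binds activins, had a log2 fold change of 1.02 ± 0.27 in SAT (adjusted p = 0.0184). Chrdl1, a BMP antagonist of the chordin family, fell in SAT from 149 to 316 CPM in lean to 75.6 to 124 CPM in obese mice, with a log2 fold change of -1.12 ± 0.18 (adjusted p = 2.46e-04). Among the 6 tested of 14 genes of TGF-β latency and activation, Thbs1, which activates latent TGF-β, fell in VAT (log2 fold change -1.10 ± 0.30, adjusted p = 0.0164), where the groups overlapped at 16.7 to 58.7 CPM in lean and 14.1 to 22.9 CPM in obese mice. Its response in VAT was lower than that in SAT, with a difference of -1.69 ± 0.30 on the log2 scale (adjusted p = 0.00264).

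Of the 9 tested of 15 response genes, 2 rose in SAT (Ccn2 and Ski) and 2 in VAT (Ccn2 and Id2). Ccn2, connective tissue growth factor, had log2 fold changes of 1.33 ± 0.22 in SAT (adjusted p = 3.08e-04) and 0.99 ± 0.21 in VAT (adjusted p = 0.00373). Ski, a repressor of Smad signaling, rose in SAT by 1.13 ± 0.29 on the log2 scale (adjusted p = 0.0133).

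**Figure D5:**
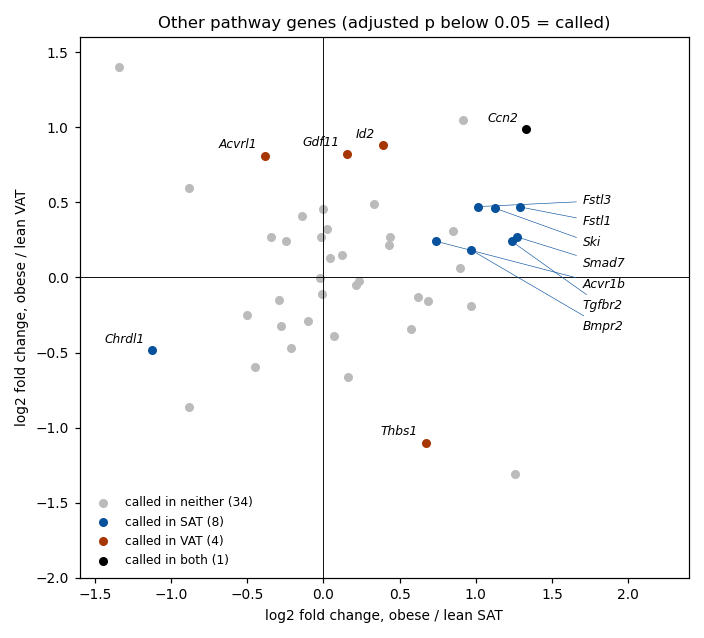
Log2 fold change of obese against lean mice in SAT (x axis) and VAT (y axis) for the 47 tested pathway genes outside the 10 members, colored by the depots in which the adjusted p was below 0.05. 8 genes were called in SAT alone, 4 in VAT alone and 1, Ccn2, in both, at 1.33 in SAT and 0.99 in VAT.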

How the data were processed

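RNA was sequenced from SAT and VAT of 8 mice. The authors trimmed the reads with Trim Galore, for which the labels give version 0.6.6 and the methods of the study another version. Per the labels and the methods, they aligned the reads with HISAT2 2.2.0 to GRCm39 with RefSeq annotation. Reads were counted per RefSeq transcript with HTSeq 0.13.5. The strand setting and the treatment of reads shared by transcripts are not given in the sources used here. The deposited table holds raw counts and CPM for 16 libraries, and the authors scaled the deposited CPM values to each library total. Only the counts were tested. Members and gene lists were chosen with earlier results of these data known. All 10 members were named, with pathway genes called for diet beyond a log2 fold change of 1 and the 3 genes nearest to a member called beyond 1.5. A listed pathway gene is not reported here. Marker genes were given by counts. The other pathway genes and the markers that the text names (such as Acvr1b, Id2, Lpl, Wt1 and Fabp4) were chosen after their values were seen.

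Rows with CPM above 1 in at least 3 of 16 libraries (13288 of 130343) were fitted with edgeR 4.0.16 (R 4.3.3), TMM scaling and the quasi-likelihood test with Benjamini-Hochberg adjustment over all rows. Diet was compared in 1 fit of the 4 groups; VAT against SAT, and the difference between the diet responses, had the mouse as a block. SAT and VAT with the same number come from 1 mouse, and their deviations from the group means correlated at -0.0164 to 0.277 (median 0.132, 8 pairs), against a median of -0.0625 for different mice. The fit was repeated on counts summed per gene symbol (12186 genes); 81.9% of rows matched a symbol. SE is the log2 fold change divided by the square root of F. Genome positions are from GENCODE vM39, and promoters from RefSeq were placed on GRCm39 by exact match. Alternatives used RLE size factors, other filters, DESeq2 1.42.0, limma 3.58.1, other designs, and fits that omitted 1 mouse. Depth per library sets a precision of 0.0602 to 0.796 CPM for 1 count. The replicates are separate mice.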

Additional observations from a re-analysis of the deposited data

Results flagged for a closer look

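In groups of 4 libraries, a library was singled out where its gap to the nearest value, divided by the range of the group, was above Dixon's 95% critical value for 4 values. Chance alone would single out about 1 in 20 groups, and 28 groups of the tested members were examined. Bmp2 in VAT of obese mice had a low library, obese mouse 4, at 12.8 CPM, while the other 3 lay at 15.3 to 15.4 CPM. Gdf3 in VAT of lean mice had a high library, lean mouse 1, at 1.28 CPM, from 2 counts in the shallowest of the 16 libraries, while the other 3 lay at 0 to 0.120 CPM.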

How the results depend on the processing

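The count of members called in SAT was 3, and it was 1 with no filter on low counts and 1 with a log2 fold change beyond 1.5 required (also 1 under that limit for counts summed per gene). Leaving out 1 mouse at a time gave 1 to 3 members by rows and 2 to 3 summed per gene, with the low of 1 reached without lean replicate 2. In VAT the count of 1, Gdf3, became 2 with Tgfb1 added when there was no filter, with the current quasi-likelihood method (legacy=FALSE), with limma voom and with the replicate number as a replicate block, both by rows and summed per gene. Leaving out 1 mouse gave 1 to 2 members in VAT at both levels, with 2 reached without lean replicate 1 and, summed per gene, also without lean replicate 4. In the labels, lean and obese mice with the same number share only that number. Their deviations within a tissue correlated at -0.146 to 0.267 over 8 pairs (median 0.0899). For SAT and VAT of different mice of 1 diet the median was -0.0625, and what the pairs of 1 number may share was not tested. For the difference between depots in diet response the count of 0 became 1, Bmp4, with no filter on counts summed per gene. For VAT against SAT in lean mice the 5 members became 3 without lean replicate 3 or 4 at both levels, within a range of 3 to 5. In obese mice the 4 members became 6 with legacy=FALSE at both levels, 5 by rows and 6 summed per gene with limma voom, and 3 by rows with no filter, and leaving out 1 mouse gave 3 to 5, with 3 reached without obese replicate 4 and 5 without obese replicate 1 (summed per gene also without lean replicate 1). Directions turned only for values that did not pass: Tgfb1 between depots in lean mice under limma voom (-0.0387), Inhbb in SAT under limma voom (-0.00735), with the 8 libraries of one tissue alone (-0.00285) and with 1 mouse left out (-0.147 to 0.172), Bmp2 in VAT with 1 mouse left out (-0.123 to 0.0255), and Gdf3 between depots in lean mice with 1 mouse left out (-2.13 to 0.57). The cause of these changes was not tested. Counts limit the 6 members with several rows, with 210 to 362 counts over 16 libraries for Gdf3, Bmp3 and Bmp4 and 2 to 59 for Tgfb2, Acvr1c and Inhba.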
